A study of Mus musculus with 8 samples.

Results

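Caveolae are small flask-shaped pits of the plasma membrane. Their coat is built from caveolins, hairpin proteins that sit in the inner leaflet of the membrane, and from cavins, which bind to the caveolins from the cytosol. Caveolae buffer membrane tension and are abundant in endothelium, fat, fibroblasts, mesothelium and muscle. Cav1 and Cav2 encode the general caveolins and Cav3 the caveolin of striated muscle. Cavin1 encodes the cavin without which caveolae do not form, Cavin2 and Cavin3 encode further general cavins, and Cavin4 encodes the cavin of striated muscle. These 7 genes of the coat were taken as a family, by their symbols, from the 52636 genes of each count table. All 7 passed the filter on low counts.

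Messenger RNA was sequenced from 8 samples of malignant mesothelioma, a cancer of the membranes that line the body cavities, from conditional mouse models. The double knockout group (2 samples) had lost Nf2 and Cdkn2a, and the triple knockout group (6 samples) had lost Nf2, Cdkn2a and Bap1, so both groups shared the loss of Nf2 and Cdkn2a. The labels give no strain, sex, age or Cre driver, and do not say whether the samples came from separate animals or cultures, so the spread behind each p-value may be technical. Comparing triple with double samples asks which genes differ when Bap1 is lost as well.

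Total counts per sample ran from 26847202 to 32082535. Bap1 stood at 106 and 71.2 CPM (read counts scaled to a common library size with TMM factors) in double samples 1 and 2, against 43.1 to 72.1 CPM over the triple group, with adjusted p = 0.122 by edgeR. Nf2 and Cdkn2a were also counted in every sample. The tables hold 1 count per gene and none per exon, so the deleted parts could not be looked at on their own. Of 8 mesothelial markers, Wt1, Upk3b and Krt19 were at 0 to 1.76 CPM in every sample but triple sample 3, where they reached 33.2, 173 and 52.9 CPM. Lrrn4 reached 75.4 CPM there and 8.30 CPM in double sample 1, and was at most 0.298 CPM elsewhere. The other 4 were counted in all 8 samples, with Msln at 12.6 to 342 CPM, Pdpn at 58.5 to 204 CPM, Krt18 at 6.84 to 203 CPM and Krt8 at 1.23 to 799 CPM. Double sample 1 stood apart, with a TMM factor of 0.771 against 0.994 to 1.10 in the others and 4.04% of counts from mitochondrial genes against 1.17% to 2.33%.

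Both muscle forms of the caveola coat fell in the triple knockout samples. None of the 5 general forms passed the test, and Cav1 ran from 498 to 13299 CPM among the triple samples. Of the 7 members, 2 were called lower and 0 higher by edgeR at an adjusted p under 0.05, while over all 17709 genes tested 8.35% were called, 5.41% lower and 2.94% higher. At an unadjusted p under 0.05 by edgeR there were 4 members, Cav3, Cavin4, Cavin1 and Cavin3, and 4947 of all 17709 genes. DESeq2 called 3 (Cav1, Cavin3 and Cavin4), where it called 19.1% of all genes tested, and gave no p for Cav3.

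**Figure D1:**
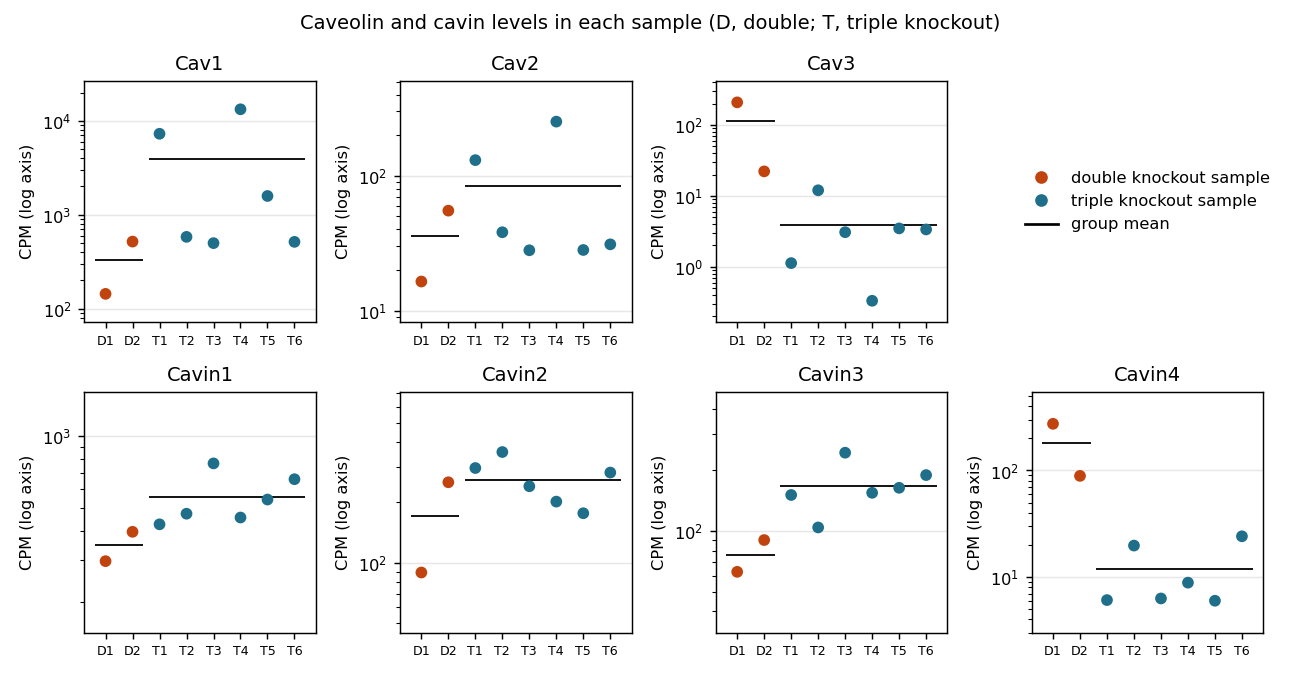
CPM of the 7 caveolin and cavin genes (vertical log axis, a separate range in each panel) in the 2 double (D) and 6 triple (T) knockout samples, with a line at each group's mean. Cav3 and Cavin4 lie lower in every triple sample than in either double sample, and Cav1 and Cav2 are highest in triple samples 1 and 4.

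Cav3 (chromosome 6, 112459505 to 112472872 on GRCm38) encodes caveolin 3. Its CPM was 210 and 22.2 in double samples 1 and 2, against 1.13, 12.03, 3.08, 0.33, 3.48 and 3.37 in triple samples 1 to 6. The groups did not overlap, but double sample 1 was far above double sample 2, and triple sample 2 came closest to double sample 2. The log2 fold change, triple minus double, was -4.89 ± 1.04 (SE; adjusted p = 0.0282 by edgeR). Cav3 lost its call without double replicate 1, where the log2 fold change was -2.50 with adjusted p = 0.398, and without triple replicate 1, 3, 5 or 6, with adjusted p of 0.0576 to 0.0619. With triple replicates 1 and 4 both left out it was at -4.40 with adjusted p = 0.0718.

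Cavin4 (chromosome 4, 48663514 to 48673502), whose product is a muscle cavin also named Murc, read 274 and 88.9 CPM in the double samples. In triple samples 1 to 6 it was at 6.07, 19.7, 6.29, 8.85, 5.99 and 24.1 CPM. The highest triple sample thus lay well below the lower double sample. Cavin4 fell by 3.94 ± 0.61 (SE) on the log2 scale, with adjusted p = 0.00956. Without double replicate 1 it was at -2.91 with adjusted p = 0.0973, and without both triple replicates 1 and 4 it was at -3.69 with adjusted p = 0.0580. All triple samples lay below both double samples for these 2 members, as they did for 11.4% of all genes tested.

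The letter code in the descriptions, whose meaning the labels do not give, is SN930 for double sample 1 and triple samples 4, 5 and 6. Among those 4 samples Cav3 had a log2 fold change of -6.43 (adjusted p = 0.0410) and Cavin4 of -4.38 (adjusted p = 0.0416). Among the 4 samples with other codes, which include double sample 2, the values were -2.03 (adjusted p = 0.551) and -3.06 (adjusted p = 0.258). Each set holds a lone double sample, so the code and the double sample cannot be told apart. With the code as a term over all 8 samples, adjusted p was 0.0725 for Cav3 and 0.0204 for Cavin4.

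The upstream promoter sequences of both muscle forms are shown beside a sequence of Cav1 because Cav3 and Cavin4 fell together while Cav1 did not. They are RefSeq sequences on GRCm38.p6, with 250 bases before each start site, all on the plus strand. Capitals mark matches to CANNTG, the E-box that muscle determination factors such as Myod1 and Myog bind. Cav3 is at chr6:112459255-112459504, Cavin4 at chr4:48663264-48663513 and Cav1 at chr6:17306085-17306334.
Cav3: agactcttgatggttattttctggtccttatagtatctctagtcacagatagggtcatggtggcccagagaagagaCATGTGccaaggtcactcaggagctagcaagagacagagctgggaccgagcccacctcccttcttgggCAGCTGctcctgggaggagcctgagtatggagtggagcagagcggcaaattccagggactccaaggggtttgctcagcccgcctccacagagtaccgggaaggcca
Cavin4: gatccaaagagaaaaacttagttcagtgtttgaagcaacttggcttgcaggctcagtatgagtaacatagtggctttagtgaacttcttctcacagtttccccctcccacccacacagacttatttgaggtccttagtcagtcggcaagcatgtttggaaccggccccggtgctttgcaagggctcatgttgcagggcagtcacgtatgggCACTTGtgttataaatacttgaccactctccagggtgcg
Cav1: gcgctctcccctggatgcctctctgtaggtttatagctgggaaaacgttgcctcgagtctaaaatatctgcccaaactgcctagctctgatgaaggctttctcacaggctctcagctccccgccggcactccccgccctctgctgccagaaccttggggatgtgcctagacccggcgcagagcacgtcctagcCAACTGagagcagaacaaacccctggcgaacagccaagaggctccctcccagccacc
Cav3 held 2 matches, of which 1 was CAGCTG. Cavin4 held 1 match, close to a TATAAA box, and the Cav1 sequence shown held 1. Another RefSeq window of Cav1, at chr6:17307390-17307639 and not shown, also held 1, in the form CAGGTG. Of 32851 RefSeq windows of this length, 66.2% held CANNTG, 13.0% held CAGCTG (both motifs read the same on either strand, and each CAGCTG is also a CANNTG) and 7.59% held TATAAA on the strand shown. A MEF2 box was found in 0 of the 8 windows of the 6 members that the table lists, and in 2.92% of all windows. A match of letters describes the sequence and shows no binding.

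Transcripts of muscle were counted in both groups, and they moved with the 2 muscle forms in part. Of all genes tested edgeR called 8.35% (5.41% lower), limma-voom 6.04% and DESeq2 19.1%. All 9 markers of embryonic muscle and myoblasts were called lower by edgeR and 8 by limma-voom, while DESeq2 called 5 and gave no p for the other 4. Their summed level was 5808 and 1799 CPM in double samples 1 and 2 against 3.12 to 110 CPM in the triple samples. The most abundant of them, embryonic myosin Myh3, read 2448 and 636 CPM in the double samples against at most 18.8 CPM in the triple samples. Mymx, which is needed for myoblast fusion, had no count in triple sample 4. Of 12 markers of adult skeletal muscle, 0 were called by edgeR (2 at an unadjusted p under 0.05, and 2 called by DESeq2). Their summed level was 70665 CPM in double sample 1 and 2618 CPM in double sample 2, against 129 to 14576 CPM in the triple samples, and none of the 12 was at 0 in any sample. Triple samples 2, 5 and 6, at 14576, 5037 and 6422 CPM, had more adult muscle transcript than double sample 2 but less Cav3 and Cavin4. In bulk samples fewer cells of a type and less RNA per cell cannot be told apart. How far these transcripts account for the levels of Cav3 and Cavin4 was not tested.

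Set per kilobase of exon, which allows levels of different genes to be compared, the muscle forms led the coat in double sample 1 and in no other sample. There Cav3 was at 181 CPM per kilobase and Cavin4 at 133, above Cavin1 at 83.1 and Cav1 at 41.7. Cav3 made up 79.5% of the 3 caveolins per kilobase in double sample 1 and 10.3% in double sample 2. In the triple samples its share was 5.46% in sample 2 and 0.00728% to 1.80% in the others. Cavin4 made up 47.1% and 14.9% of the 4 cavins per kilobase in the double samples and 0.692% to 3.00% in the triple samples. Both shares were therefore higher in each double sample than in any triple sample, on a description with no test.

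**Figure D2:**
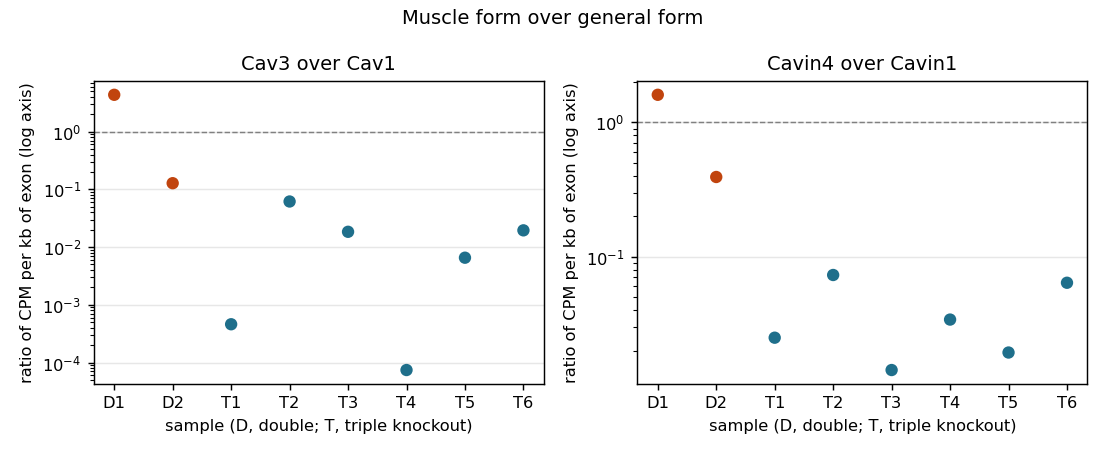
Ratio of the muscle form to the general form in each sample, in CPM per kilobase of exon (vertical log axis), for Cav3 over Cav1 (left) and Cavin4 over Cavin1 (right), with a dashed line at equal levels. Double sample 1 alone lies above the line, at 4.35 and 1.61, and the triple samples reach at most 0.0617 and 0.0730.

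Cav1 (chromosome 6, 17306335 to 17341452) encodes caveolin 1, the scaffold of caveolae outside striated muscle. Its CPM was 143 and 517 in the double samples. In triple samples 1 to 6 it was at 7292, 581, 498, 13299, 1584 and 514 CPM. Triple samples 1 and 4 were far above the rest, triple sample 5 was above every other remaining sample, and triple samples 2, 3 and 6 lay close to double sample 2. Cav1 held more counts than any other gene in triple sample 4, with 401167 counts or 1.35% of the library, and was the fifth most counted gene in triple sample 1. The log2 fold change was 3.58 ± 1.70 (SE), with a 95% interval of -0.27 to 7.44 and adjusted p = 0.205 by edgeR. DESeq2 gave 3.56 with adjusted p = 0.0222. With triple replicates 1 and 4 both left out, a choice made after the values were seen, the log2 fold change was 1.27.

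Cav2 (chromosome 6, 17281185 to 17289115) encodes caveolin 2, which depends on caveolin 1 for its stability and transport. The gene lies 17219 bases before Cav1 on the same strand. Its CPM was 16.4 and 55.1 in the double samples, against 131, 38.1, 28.0, 252, 28.2 and 31.0 in triple samples 1 to 6. Triple samples 1 and 4 were again the highest, while triple sample 5, high for Cav1, was not high for Cav2. The log2 fold change was 1.24 ± 1.04 (SE; 95% interval -1.11 to 3.60; adjusted p = 0.456). With triple replicates 1 and 4 both left out it was -0.19, with adjusted p = 0.832. Per kilobase, Cav1 exceeded Cav2 by 8.45 and 9.09 times in the double samples, by 14.8 to 17.2 times in triple samples 2, 3 and 6, and by 51.1 to 54.5 times in triple samples 1, 4 and 5.

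The genes on both sides of Cav2 and Cav1 were high in the same samples. This neighbourhood was examined after the values of Cav1 were seen. Within 2 Mb of the start of Cav1 lie 11 tested protein-coding genes with a mean of at least 5 CPM, in the order Mdfic, Tfec, Tes, Cav2, Cav1, Met, Capza2, St7, Wnt2, Cftr and Lsm8. At least 2-fold over the median of the 8 samples stood 8 of these 11 in triple sample 1, 10 in triple sample 4 and 7 in triple sample 5, and 0 in each of the other 5 samples. Of all 11921 genes at that level, the share past the same fold was 2.52% in triple sample 1, 2.41% in triple sample 4 and 3.33% in triple sample 5. Genes side by side are not independent, and the double samples enter the median. The counts include Cav1 itself, whose level led to this window. The mean CPM that admits a gene also includes the samples where the gene is high. The counts are therefore a description and no test.

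Tes (testin, a LIM domain protein of cell contacts) read 34.6 and 247 CPM in the double samples, against 3845, 198, 101, 8877, 630.0 and 163 CPM across triple samples 1 to 6. Met, the receptor of hepatocyte growth factor, stood at 59.9 and 235 CPM against 5181, 619, 370, 6629, 3211 and 182 CPM. Triple samples 1, 4 and 5 held the 3 highest values of both genes. Capza2, an actin capping subunit, was at 9.93, 20.1 and 2.98 times its median in triple samples 1, 4 and 5. St7 was at 11.2, 22.6 and 4.99 times its median in the same order. Cav1 itself was at 24.2 times its median in triple sample 4 and at 2.88 times in triple sample 5, while Cav2 was at 7.29 and 0.815 times.

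Farther from Cav1 the 3 samples differed in which genes were high. Lsm8, 1.54 Mb beyond the start of Cav1, was at 1017.5 CPM in triple sample 4 and at 51.8 and 64.6 CPM in triple samples 1 and 5. Farther on, Ing3 and Cped1 were at 17.8 and 8.20 times their medians in triple sample 4 and at 0.755 and 0.919 times in triple sample 1. Fam3c, 5.00 Mb from Cav1, was at 23.1 times its median in triple sample 4 and at 10.4 times in triple sample 1, but at 0.921 times in triple sample 5. On the other side Tfec was at 2.51, 1.54 and 0.589 times its median in triple samples 4, 1 and 5. Beyond Tfec, Mdfic, Tmem168, Thsd7a and Phf14 were at 2.15, 2.40, 2.10 and 2.58 times their medians in triple sample 5, while the 4 genes among them, Ppp1r3a, Gpr85, Bmt2 and Tmem106b, were at 0.485 to 1.31 times. In triple samples 4 and 1 Thsd7a was at 2.18 and 1.35 times its median, and Mdfic, Tmem168 and Phf14 were at 0.969 to 1.31 times theirs. DNA copy number and the start sites in use were not measured here, and their part in these levels was not tested.

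**Figure D3:**
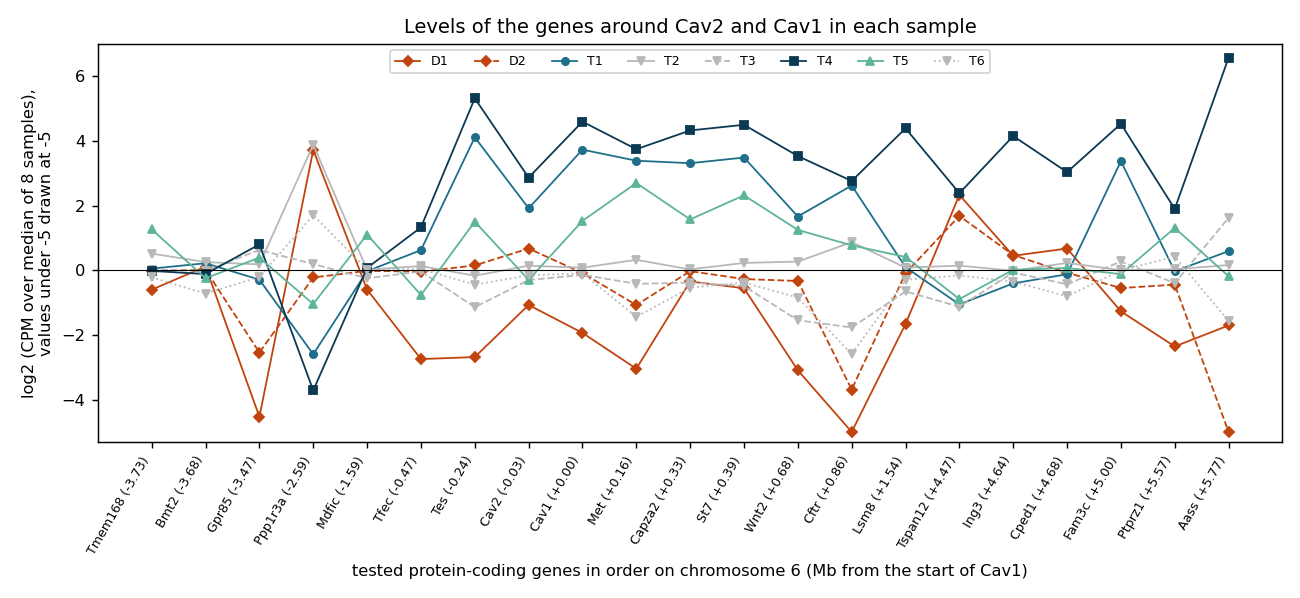
Level of each tested protein-coding gene around Cav2 and Cav1, in order along chromosome 6 (distance from the start of Cav1 in Mb in brackets), as log2 of its CPM over the median of the 8 samples; each line is a sample. Triple samples 1 and 4 lie above the other samples from Tes to St7, with triple sample 5 between them and the rest for most of these genes and near 0 for Cav2.

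Cavin1 (chromosome 11, 100956733 to 100970887), also named Ptrf, read 298 and 396 CPM in the double samples, against 426, 472, 768, 455, 541 and 659 CPM across triple samples 1 to 6. Every triple sample lay above both double samples, by little in triple sample 1. The log2 fold change was 0.67 ± 0.28 (SE; 95% interval 0.03 to 1.32; adjusted p = 0.165). Cavin1 was not high in triple samples 1 and 4, where Cav1 was highest. Per kilobase Cav1 was at 0.501 to 1.36 times Cavin1 in the double samples and in triple samples 2, 3 and 6. It was at 17.8, 30.5 and 3.05 times Cavin1 in triple samples 1, 4 and 5.

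Cavin3 (chromosome 7, 105480083 to 105482300), also named Prkcdbp, encodes a cavin that binds protein kinase C delta. Its CPM was 62.8 and 90.1 in the double samples, against 150, 104, 243, 154, 163 and 189 in triple samples 1 to 6. No triple sample overlapped the double samples, although triple sample 2 came near them. The log2 fold change was 1.13 ± 0.32 (SE; 95% interval 0.40 to 1.86; adjusted p = 0.0634). The adjusted p was 0.00991 by DESeq2, 0.0411 without double replicate 2 and 0.0465 without triple replicate 2. It was 0.371 without double replicate 1, where the log2 fold change was 0.88, 0.557 among the samples with other codes, and 0.0789 to 0.107 without triple replicate 1, 3, 4, 5 or 6. All triple samples exceeded both double samples for Cavin1 and Cavin3, 2 of 7 members, and for 12.8% of all genes tested. The antisense gene Gm45667 shares 374 exon bases with Cavin3 and had 2 to 10 counts per sample against 1551 to 7579 for Cavin3.

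Cavin2 (chromosome 1, 51289126 to 51302960), also named Sdpr, encodes a cavin that bends membranes. Its CPM was 89.4 and 252 in the double samples, against 297, 357, 241, 202, 177 and 282 in triple samples 1 to 6. Double sample 2 lay inside the range of the triple samples and double sample 1 below it. The log2 fold change was 0.60 ± 0.41 (SE; 95% interval -0.32 to 1.53; adjusted p = 0.359). It was 0.04 without double replicate 1 and 1.55, with adjusted p = 0.0272, without double replicate 2.

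**Figure D4:**
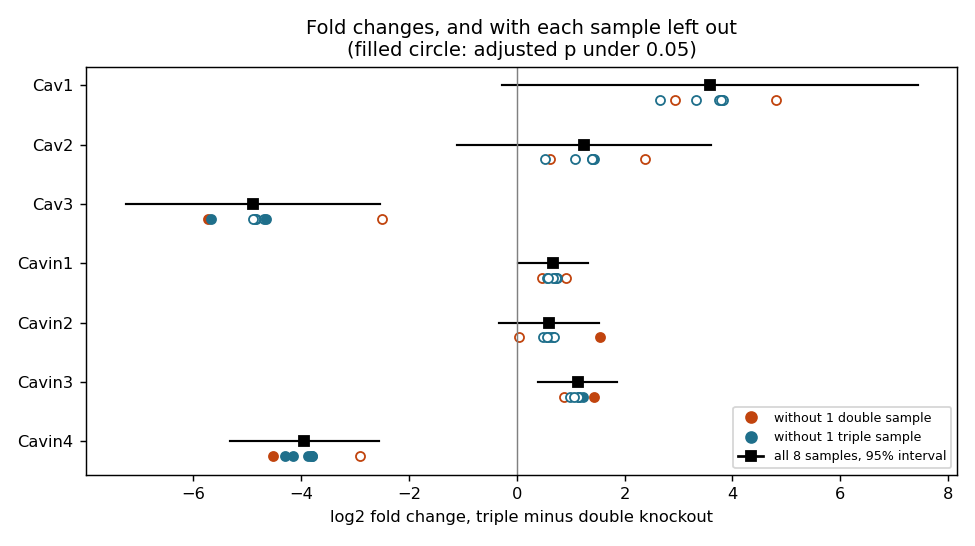
Log2 fold change, triple minus double knockout, of the 7 members over all 8 samples (squares, with the 95% interval) and with each sample left out in turn (circles, filled where adjusted p was under 0.05). The intervals of Cav3 and Cavin4 lie wholly below 0, and the circle without double replicate 1 is nearest to 0 for both, at -2.50 and -2.91.

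Endothelium, fibroblasts and fat also build caveolae. Over all genes tested 5.41% were called lower and 2.94% higher. Of 8 endothelial markers 1 was called lower, Tek, with adjusted p = 0.0499 by edgeR. Tek read 89.7 and 20.8 CPM in the double samples against 9.91 to 22.7 CPM in the triple samples, so the groups overlapped. The summed levels of the 8 were 429 and 320 CPM in the double samples, against 184 to 480 CPM over the triple group. Of 6 smooth muscle markers 1 (Actg2) was called lower, with sums of 1603 and 1706 CPM against 307 to 1173 CPM. Acta2 alone held 1384 and 1395 CPM of the sums in double samples 1 and 2. The median log2 fold change of the 6 was 0.33, with 2 of the 6 below 0. Of 6 fibroblast markers 1 (Pdgfra) was called higher, and their summed level was 8750 and 9276 CPM in the double samples against 9714 to 35079 CPM in the triple samples, highest in triple sample 6. Of 5 adipocyte markers tested 0 were called by edgeR or DESeq2 (2 at an unadjusted p under 0.05 by edgeR). Adipocyte markers summed to 1102 CPM in double sample 1, 34.3 CPM in double sample 2 and 3.41 to 177 CPM in the triple samples, lowest in triple sample 4, where 3 of the 6 had no count. In triple samples 1 and 4, which held the highest Cav1, the fibroblast sums were 21108 and 14874 CPM, and that of triple sample 1 was below triple sample 6 alone. The part of these cell types in the levels of the caveolins and cavins was not tested.

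The order of levels per kilobase put Cav1 or Cavin1 first in double sample 2 and in all 6 triple samples. Cav1 led in double sample 2 and in triple samples 1, 2, 4 and 5, and Cavin1 in triple samples 3 and 6. Cav2 was the lowest member in both double samples, at 4.93 and 16.5 CPM per kilobase. In the triple samples the lowest place went to Cav3 or Cavin4, which lay close together in samples 2, 3 and 5, at 10.4 against 9.60, at 2.66 against 3.06 and at 3.01 against 2.91 CPM per kilobase.

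Among the members, the pairs that varied alike over the 8 samples were Cavin1 with Cavin3 (Pearson r = 0.916 on log2 CPM), Cav1 with Cav2 (r = 0.913) and Cav3 with Cavin4 (r = 0.877). These values are descriptions of 8 points that share their libraries, and part of each reflects the difference between the groups. Among the 6 triple samples alone the r values were 0.800, 0.933 and 0.456 in the same order. Without the 2 samples farthest from the median of the gene named first, r was 0.724, 0.482 and 0.830, so the likeness of Cav1 and Cav2 rested on triple samples 1 and 4.

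Among 11495 other named genes with a mean of at least 5 CPM, the pattern of Cav1 was most like that of its neighbour Tes (r = 0.992 over 8 samples), followed by Gap43 and Igsf10 on other chromosomes (r = 0.965 and 0.964). Cav2 was most like Fam49b, Ppat and Sub1 (r = 0.971, 0.962 and 0.952). Cav3 was most like Rab40b, Ivd and Nol3 (r = 0.988 to 0.989), and Cavin4 was most like Fbxo32, a muscle ubiquitin ligase, Wipi1 and Cdc42ep3 (r = 0.978 to 0.981). Cavin1 was most like Mea1, Snx12 and Ap2s1 (r = 0.958 to 0.961), Cavin2 like Mcm8, Sec16b and Dock11 (r = 0.968 to 0.983), and Cavin3 like Ifitm2, Numbl and Slc25a1 (r = 0.973 to 0.979). All 7 members had 3 genes with r of 0.952 or more, so an r of this size sets none of them apart.

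Transcripts were counted for 9 genes that encode proteins of the caveola neck and its accessory factors. Of these 2 were called lower, 0 higher and 7 in neither direction, where 5.41% of all genes tested were called lower and 2.94% higher. The median log2 fold change of the 9 was -0.69, against 0.02 over all genes tested, and it was -0.20 without double replicate 1. Ehd3, an ATPase of the Ehd family, read 90.3 and 6.90 CPM in the double samples against 1.76 to 6.53 CPM over the triple group. Ehd3 fell by 3.56 ± 0.74 (SE; adjusted p = 0.0261 by edgeR). Pacsin3, the membrane-bending pacsin of muscle, read 351 and 34.5 CPM in the double samples against 15.0 to 53.9 CPM over the triple group, a range that holds double sample 2, and fell by 2.72 ± 0.67 (SE; adjusted p = 0.0421). Without double replicate 1 Ehd3 was at -0.76 (adjusted p = 0.678) and Pacsin3 at -0.24 (adjusted p = 0.910), so both calls rested on that sample. Ehd3 also lost its call without triple replicate 1 or 6, and Pacsin3 without triple replicate 1, 3, 4, 5 or 6. The other 7 did not pass the test. They included Ehd2, the main ATPase of the caveola neck, at 0.75 ± 0.32 (SE; adjusted p = 0.168).

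Of 12 genes of muscle membrane repair and the T-tubule, 5 were called lower, 0 higher and 7 in neither direction. Over all genes tested 5.41% were called lower. The median of the 12 was -2.66 on the log2 scale, and -1.06 without double replicate 1. The 9 embryonic muscle markers described above fell in the same samples, and their part in these levels was not tested. Popdc3 and Bves, members of the Popeye family of membrane proteins that bind cyclic AMP, read 129 and 99.0 CPM, and 52.6 and 90.0 CPM, in the double samples. Their highest values in the triple samples were 10.6 and 10.3 CPM. Popdc3 fell by 4.17 ± 0.54 (adjusted p = 0.00525) and Bves by 3.32 ± 0.44 (adjusted p = 0.00560) on the log2 scale, and both kept their call with any 1 sample left out. Bin1, which shapes T-tubules, stood at 1124 and 289 CPM against 131 to 199 CPM. Dag1 (dystroglycan) stood at 979 and 356 CPM against 137 to 277 CPM, and Jph2, which ties T-tubules to the sarcoplasmic reticulum, at 346 and 164 CPM against 15.0 to 81.3 CPM. Those 3 fell by 2.11 ± 0.39, 1.72 ± 0.36 and 2.67 ± 0.56 on the log2 scale over all 8 samples. Without double replicate 1 they were at -0.83, -0.82 and -2.03 with adjusted p of 0.144, 0.285 and 0.236. Dag1 also lost its call without triple replicate 1 or 6 and Jph2 without triple replicate 1, 4 or 5.

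Among 10 genes of caveola cargo and signalling partners 1 was called higher, 1 lower and 8 in neither direction. Over all genes tested 2.94% were called higher and 5.41% lower. The median of the 10 was -0.12 on the log2 scale and turned to 0.31 without double replicate 1. Src, the kinase that phosphorylates caveolin 1, read 35.0 and 76.1 CPM in the double samples against 122 to 170 CPM over the triple group. It rose by 1.46 ± 0.30 (SE; adjusted p = 0.0249). Insr, the insulin receptor, stood at 121 and 70.5 CPM against 36.5 to 48.5 CPM and fell by 1.15 ± 0.21 (SE; adjusted p = 0.0179). Neither overlapped between the groups. Every triple sample was above both double samples for 12.8% of all genes tested, and below both for 11.4%. Without double replicate 1 Src was at 1.00 (adjusted p = 0.0823) and Insr at -0.72 (adjusted p = 0.135), and without triple replicate 1 Src had adjusted p = 0.0553. Of 4 flotillin and stomatin genes 0 were called by edgeR or DESeq2 (1 at an unadjusted p under 0.05 in each). Stom was at -0.84 ± 0.27 (SE, adjusted p = 0.0930 by edgeR) and Flot2 at -0.32 ± 0.25 (SE, adjusted p = 0.425 by edgeR).

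**Figure D5:**
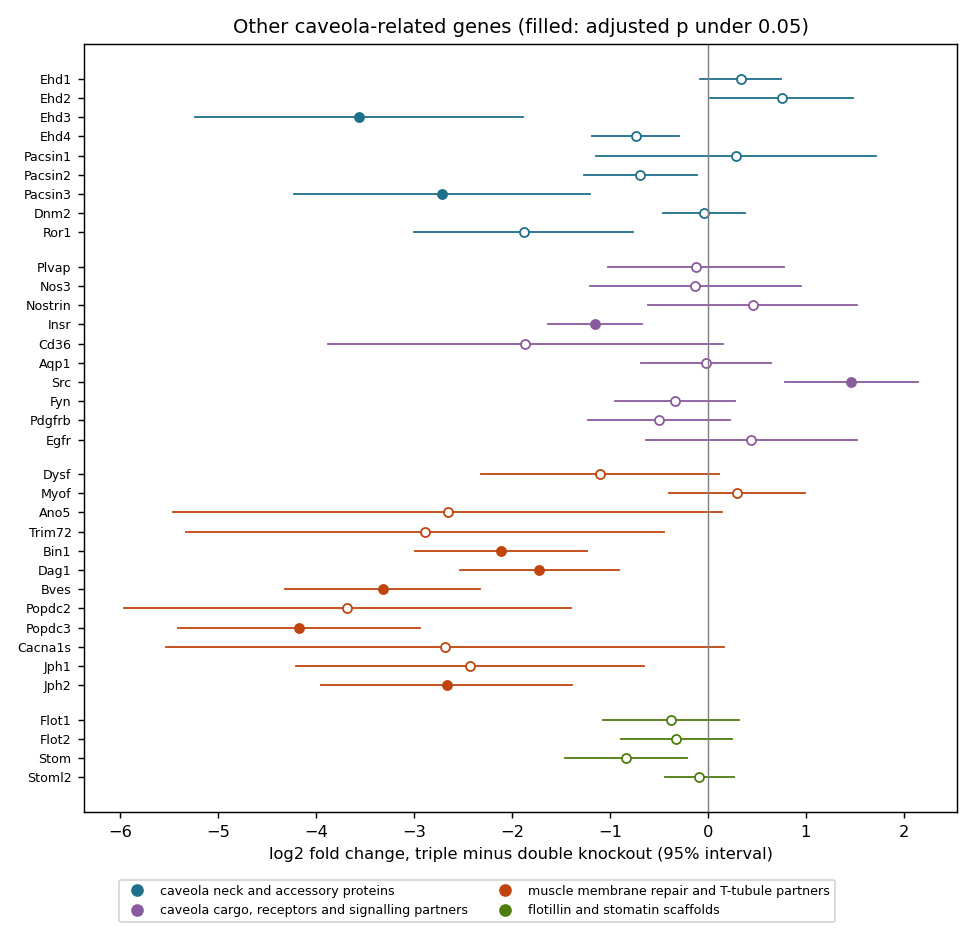
Log2 fold change, triple minus double knockout, with its 95% interval, of 35 genes in 4 lists of caveola-related genes; filled points had an adjusted p under 0.05. The muscle membrane list holds 5 filled points, all below 0, the neck list 2 below 0, and the cargo list 1 on each side of 0.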

How the data were processed

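The authors deposited 1 table of whole-number read counts per gene for each of the 8 samples, with gene coordinates. Per the submitters' processing notes, HTSeq and DESeq2 were used with mm10 and GRCm38. Which aligner, annotation release and strand setting they used is not given in the sources used here. Symbols and exon lengths came from GENCODE M21, and 49993 of 52636 genes had its coordinates once starts, counted from 0 in the files, were moved by 1.

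Low-count genes were removed with filterByExpr and TMM factors set the scaling. The edgeR 4.0.16 quasi-likelihood test in R 4.3.3, with no covariate, compared the triple with the double group over all 8 samples. Adjusted p-values are Benjamini-Hochberg over the 17709 genes tested. Standard errors were derived from the test statistic. Log2 levels for correlations used a prior count of 2. Levels per kilobase divide CPM by the length of all merged exons of a gene. Alternatives were DESeq2 1.42.0, limma-voom (limma 3.58.1), RLE and upper-quartile scaling, no filter or 1 CPM in at least 2 samples, the description code, and leaving out samples. The tests were checked on simulated data.

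The members and gene lists were chosen with earlier results of these data known. Named genes are the members, the targeted genes, up to 5 called genes per list by smallest p (2 where none was called), the 3 genes most like each member, and the most abundant marker of a list. Genes around Cav1, Ehd2, and markers beyond the most abundant were chosen after their values were seen. Replicate numbers follow accession order and pair no samples. Intervals are 95% confidence intervals of the log2 fold change. They were built from its standard error, which rests on the spread between samples.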

Additional observations from a re-analysis of the deposited data

Results flagged for a closer look

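Among 59 genes examined in the 6 triple samples, 5 had a highest or lowest sample separated from the others by more than Dixon's 95% limit, which chance passes in about 1 in 20 groups. Cav3 was at 12.03 CPM in triple sample 2, with the next at 3.48 CPM. Nf2 was at 62.7 CPM in triple sample 4, below the others, which began at 87.1 CPM. Around Cav1, Wnt2 and Lsm8 were at 52.0 and 1017.5 CPM in triple sample 4 with the next samples at 14.2 and 64.6 CPM, and Mdfic was at 172 CPM in triple sample 5 with the next at 84.1 CPM.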

How the results depend on the processing

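The signs of the fold changes of Cav1, Cav3 and the 4 cavins were the same under all 18 alternatives, and Cav2 changed sign under 1, the added choice of leaving out triple replicates 1 and 4 together (-0.19). That choice called 336 genes in all, 0 members (4 at an unadjusted p under 0.05), 0 neck, 0 cargo and 2 muscle membrane genes, with Cav3 at -4.40 and Cavin4 at -3.69. DESeq2 called 3380 genes, 4 neck and 8 muscle membrane genes, with Cav1 at 3.56 and Cavin3 at 1.10. Limma-voom called 0 neck genes (6 at an unadjusted p under 0.05) and RLE scaling 4. With the description code as a term 962 genes, 1 member and 0 neck genes were called, with Cav3 at -5.06. Among samples with code SN930, 1 flotillin or stomatin gene was called, and Cavin3 was at 1.45. Among those with other codes 1 gene was called in all, with 0 members (1 at an unadjusted p under 0.05), 0 neck, 0 cargo and 0 muscle membrane genes, Cav3 at -2.03, Cavin4 at -3.06 and Flot2 at 0.22. Leaving out each sample in turn called 315 (without double replicate 1) to 5579 genes (without double replicate 2), 0 to 4 members, 0 to 6 neck, 0 to 4 cargo, 2 to 8 muscle membrane and 0 to 3 flotillin or stomatin genes. Over the same fits Cav3 ran from -5.73 to -2.50, Cavin4 from -4.52 to -2.91, Cavin2 from 0.037 to 1.55 and Cavin3 from 0.88 to 1.43, and Flot2 from -0.73 to 0.27 (without double replicate 1). Fits without a double sample hold a lone double sample, assumed to vary like the triple samples. The causes were not tested. With 2 double samples, the spread in that group is poorly known.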
